A study of Solanum lycopersicum with 31 samples.

Results

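Among 31 leaf libraries of tomato, 3 stood far from the rest in expression: the library labelled C_PC 4, PI_PC 2 and PI_PC 3. They were chosen by 1 measured value, over 1000 counts of LOC101248124, an uncharacterized gene. They are set against the other 13 libraries of the same experiment. Because the counts themselves chose the 3 leaves, every difference between the 3 and the 13 is given as a description with no test.

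The study grew wild-type Moneymaker plants in a chamber beneath filters of organic solar cell blends or beneath a spectrally neutral control filter, and sampled 1 leaf library per plant. The experiment with equal photon flux (PC) holds 4 libraries each of PI_PC (blend PTB7-Th:IEICO-4F), FI_PC (FTAZ:IT-M), FP_PC (FTAZ:PCBM) and C_PC (control filter). The second experiment (HC, labelled as controlled for height) has the same filters with 3 libraries of PI_HC and 4 each of FI_HC, FP_HC and C_HC, and no library in it passed the count threshold. Plant age and the hour of sampling are not given in the sources used here. The 3 leaves thus come from 2 labelled groups, 1 of them a control.

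In a mature leaf, nuclear genes for light-harvesting proteins, photosystem subunits and Calvin cycle enzymes are among the most transcribed, and their levels follow light, developmental age and the time of day. Pathogen and damage signals are known to lower these genes while raising WRKY factors, glucanases, chitinases and the secretory folding machinery. Leaf senescence also lowers them, and it brings up NAC factors and the enzymes that dismantle chlorophyll. The circadian clock is read from morning genes such as LHY and REVEILLE genes and from evening genes such as GIGANTEA.

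The labels of 3 PC libraries are in doubt, since the sample identifiers in the files place the fourth replicates of C_PC, PI_PC and FP_PC in a block made up of some other group's libraries. The library labelled FP_PC 4 shares its block with PI_HC 1, PI_HC 3 and PI_HC 4, so it sits among libraries of the other experiment though it is counted in the other 13. The library labelled C_PC 4 shares its block with PI_PC 1, PI_PC 2 and PI_PC 3. The 3 leaves therefore lie in 1 block of 4 libraries, and what the block stands for is not given in the sources used here. Depth did not separate the leaves, with 14572814 to 15063727 gene counts in the 3 and 14321562 to 15172057 in the other 13. Genes with at least 1 count numbered 19094 to 19294 in the 3 leaves and 18220 to 19340 in the other 13. The 10 most counted genes held 6.19% to 7.49% of counts in the 3 leaves and 8.82% to 10.4% in the other 13, and plastid and mitochondrial genes held 0.120% to 0.144% in the 3 leaves and 0.0960% to 0.133% in the other 13. The TMM scaling factors were 1.13 to 1.18 in the 3 leaves and 0.886 to 1.04 in the other 13, and their part in the differences below was measured only by changing the scaling.

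LOC101248124 (chromosome 8, 56706348 to 56707385 on build SL3.0) had 2997 counts in the library labelled C_PC 4, 1487 in PI_PC 2 and 2206 in PI_PC 3. The other 13 PC libraries had 21 to 210 counts with a median of 62, and the 15 HC libraries had 37 to 258 with a median of 73. The lowest count inside the threshold was thus 1487 and the highest outside it 258, in FI_HC 4, so no library lay near 1000. LOC104648840 (chromosome 8, 53749007 to 53752006), also uncharacterized, had 260, 307 and 408 counts in the 3 leaves in the same order and 1 to 30 in the other 13. PSK2 (chromosome 2, 53963927 to 53964499), which encodes a precursor of the phytosulfokine peptide, a secreted growth and immune signal, had 107, 76 and 77 counts in the 3 leaves and 0 to 8 in the other 13. All 3 genes separated the leaves without overlap. However, LOC101248124 defined the leaves, and LOC104648840 and PSK2 were given with it as their markers, so the separation is no independent check. PSK2 did not pass the filter on low counts, which was set over groups of 4 libraries. A gene expressed only in the 3 leaves could thus be left out by it.

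**Figure D1:**
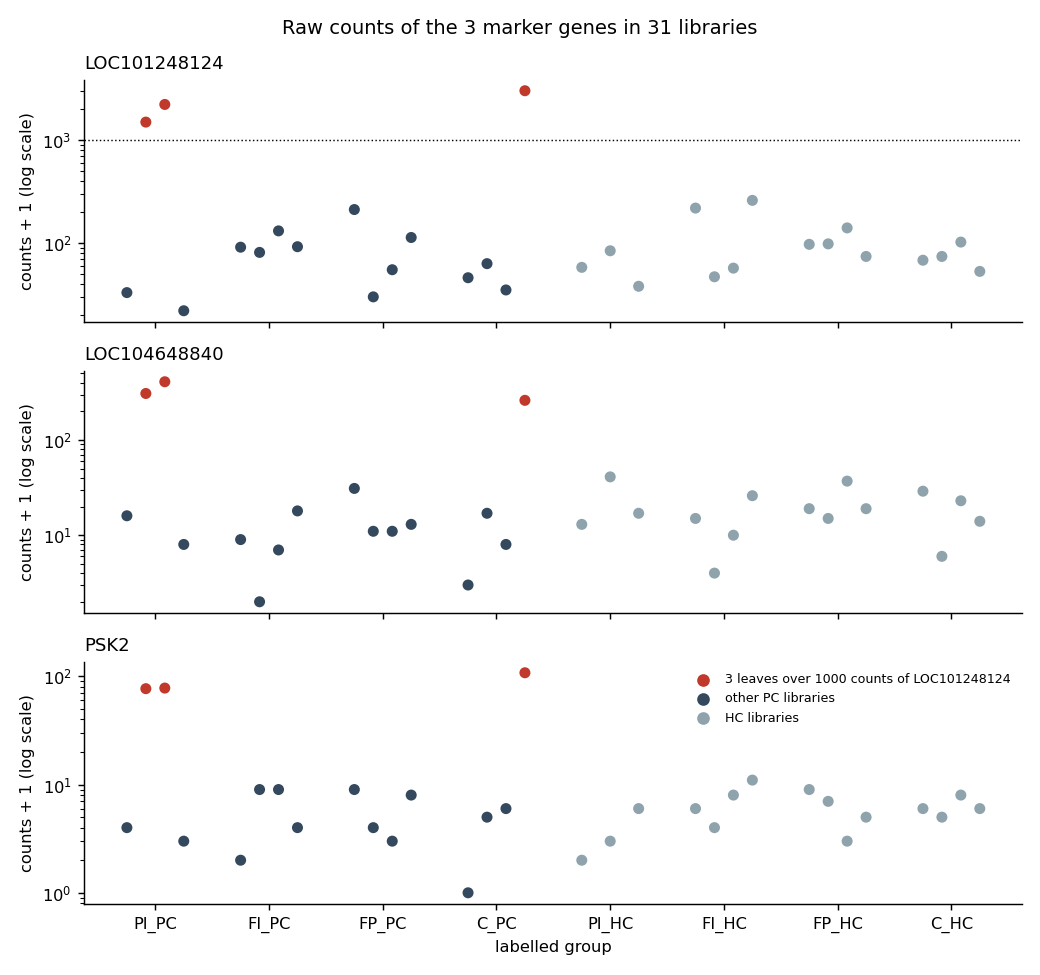
Raw counts plus 1 (log axis) of LOC101248124, LOC104648840 and PSK2 in each of the 31 libraries, grouped by label. Red points are the 3 leaves, which sit at 1487 to 2997 counts of LOC101248124, against at most 258 in any other library (dotted line: 1000 counts).

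Of 15505 genes that passed the filter in the PC libraries, 510 (3.29%) were higher in all 3 leaves than in all other 13 with a mean difference of at least 1 on the log2 scale, and 825 (5.32%) were lower by the same measure. Levels are TMM-scaled CPM, that is, counts scaled to a common library size, and differences are of mean log2 CPM with a prior count of 2. The median difference over all genes was 0.03. The root mean square log2 difference between 2 of the 3 leaves was 0.490 to 0.538, that between a leaf of the 3 and another PC library 0.712 to 1.09, and that between 2 of the other 13 0.456 to 0.932. The 3 leaves were therefore about as alike as the closer pairs of the other 13, whose median was 0.618.

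The place of each library over these genes is a description, since the genes were picked for lying outside the range of the 13 and values are centred on the mean of the 13. The median over the 510 genes, relative to the mean of the other 13, was 1.41 to 1.58 log2 in the 3 leaves and -0.35 to 0.35 in the 13. Over the 825 genes it was -1.50 to -1.42 in the 3 leaves and -0.46 to 0.44 in the 13. FP_PC 1, which had the highest count of LOC101248124 among the 13, lay farthest of them towards the 3 leaves over both sets, with 0.35 and -0.46, while C_PC 3 lay farthest the other way, with -0.35 and 0.44. PI_PC 1, the other library of the block, had 0.31 and -0.28. Among the HC libraries, FI_HC 1 reached 0.40 over the 510 genes and FI_HC 4 reached -0.43 over the 825.

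**Figure D2:**
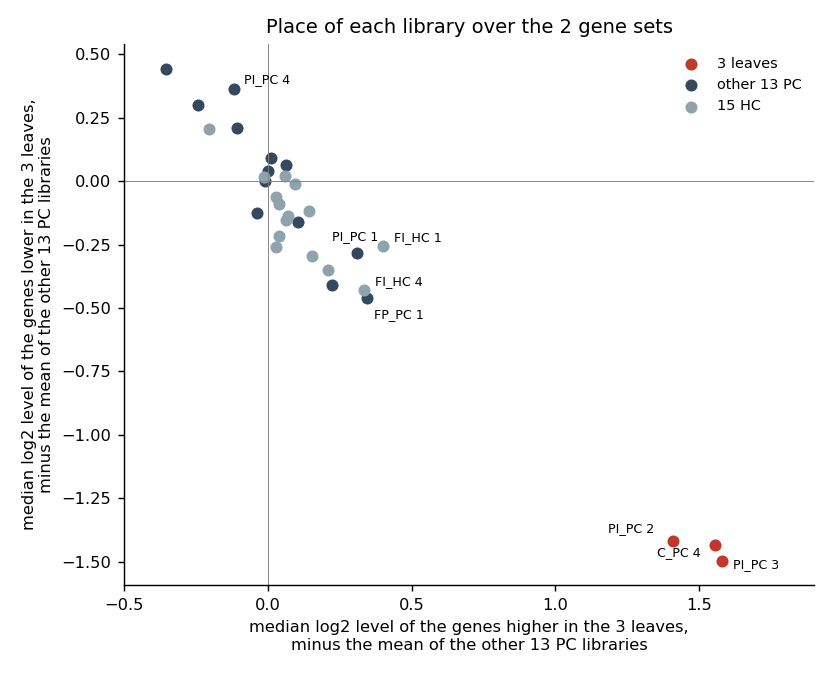
Each point is 1 of the 31 libraries: the x axis is its median log2 level over the 510 higher genes and the y axis that over the 825 lower genes, both minus the mean of the other 13 PC libraries. The 3 leaves lie at 1.41 to 1.58 and -1.50 to -1.42, as the choice of genes fixes for the 13, and the HC libraries, which did not enter the choice, reach at most 0.40 and -0.43.

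The broadest shared feature was low transcript of the photosynthetic apparatus. Of 26 light-harvesting chlorophyll a-b binding genes, 21 were lower in all 3 leaves and 0 higher, with a median difference of -1.52. The summed level of the list was 18665 CPM in the library labelled C_PC 4, 20342 CPM in PI_PC 2 and 20091 CPM in PI_PC 3. In the other 13 it was 23202 to 81447 CPM with a median of 59258 CPM, and in the HC libraries, scaled separately, 34028 to 57740.1 CPM. The 3 sums lay close together below all others, with FI_PC 3 the nearest. In bulk leaf RNA, fewer cells of a type and less RNA per cell cannot be told apart.

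The deepest light-harvesting differences were in a few antenna genes. Cab-3C (chromosome 3, 542983 to 543917), which encodes an antenna protein of photosystem II, had 4.19 CPM in the library labelled C_PC 4, 4.91 in PI_PC 2 and 5.82 in PI_PC 3. The other 13 libraries had 19.8 to 771 CPM of Cab-3C with a median of 222, a difference of -4.78. CAB12 (chromosome 6, 43549398 to 43550509) had 1.30, 0.710 and 1.61 CPM in the same order, against 3.12 to 170.0 CPM in the 13, a difference of -4.96. LOC101265886, an antenna gene annotated as 1C, and Cab-1A differed by -4.18 and -3.84. These genes also spread widely among the 13, with FI_PC 3 lowest for each. Cab-1D differed by -4.91 but overlapped, with 1.54 to 2.90 CPM in the 3 leaves and 2.86 to 357 CPM in the 13. Near-identical antenna copies share reads that were not assigned, so single copies are uncertain while the list is less so.

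The reaction centres followed. Of 22 nuclear genes for photosystem subunits, 20 were lower in the 3 leaves and 0 higher, with differences of -2.16 to -0.73 and a median of -1.42. Their summed level was 13053, 12909 and 12497 CPM in C_PC 4 as labelled, PI_PC 2 and PI_PC 3, against 19609.8 to 48438 CPM in the other 13. LOC101248983, subunit VI-1 of the photosystem I reaction centre, had 74.2 to 100.1 CPM in the 3 leaves and 175 to 679 CPM in the 13. The 3 leaves were again nearly equal to each other while the 13 varied more.

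Genes of carbon fixation and pigment synthesis were lower in part. Of 5 genes for Rubisco small chains and its activase, 4 were lower, with a median difference of -1.15. LOC101249777, Rubisco activase, which keeps the enzyme in its active form, had 11559, 11560.5 and 8101 CPM in the library labelled C_PC 4, PI_PC 2 and PI_PC 3, against 18178 to 25959 CPM in the 13. rbcS1, a Rubisco small chain, differed by -1.27. Of 11 other Calvin cycle genes, 6 were lower and 0 higher. LOC101249445, subunit B of the chloroplast glyceraldehyde-3-phosphate dehydrogenase, had 349 to 532 CPM in the 3 leaves and 1099 to 2096 CPM in the 13. Of 16 chlorophyll synthesis genes, 6 were lower and 0 higher. LOC101244717, a light-dependent protochlorophyllide oxidoreductase, had 16.9 to 19.7 CPM in the 3 leaves and 28.9 to 170.3 CPM in the 13. LOC101261422, chlorophyllide a oxygenase, which makes chlorophyll b, differed by -1.42.

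Genes of chlorophyll breakdown were split. SGR1 (chromosome 8, 63534184 to 63536737), the stay-green protein that starts chlorophyll degradation, had 267, 231 and 234 CPM in the library labelled C_PC 4, PI_PC 2 and PI_PC 3. The other 13 had 34.5 to 116 CPM with a median of 53.8, a difference of 2.14. LOC101263054, a pheophytinase, which removes the phytol tail of degraded chlorophyll, had 263 to 295 CPM in the 3 leaves and 77.2 to 184 CPM in the 13. The other genes annotated as pheophytinase, LOC101247687 and LOC101268836, overlapped, with differences of -0.35 and -0.48. LOC101252980, a stay-green-like protein, was lower, with 91.6 to 116 CPM in the 3 leaves and 138 to 278 CPM in the 13. The senescence list as a whole was mixed: 2 of its 12 genes were higher and 1 lower, and its median difference was 0.15.

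**Figure D3:**
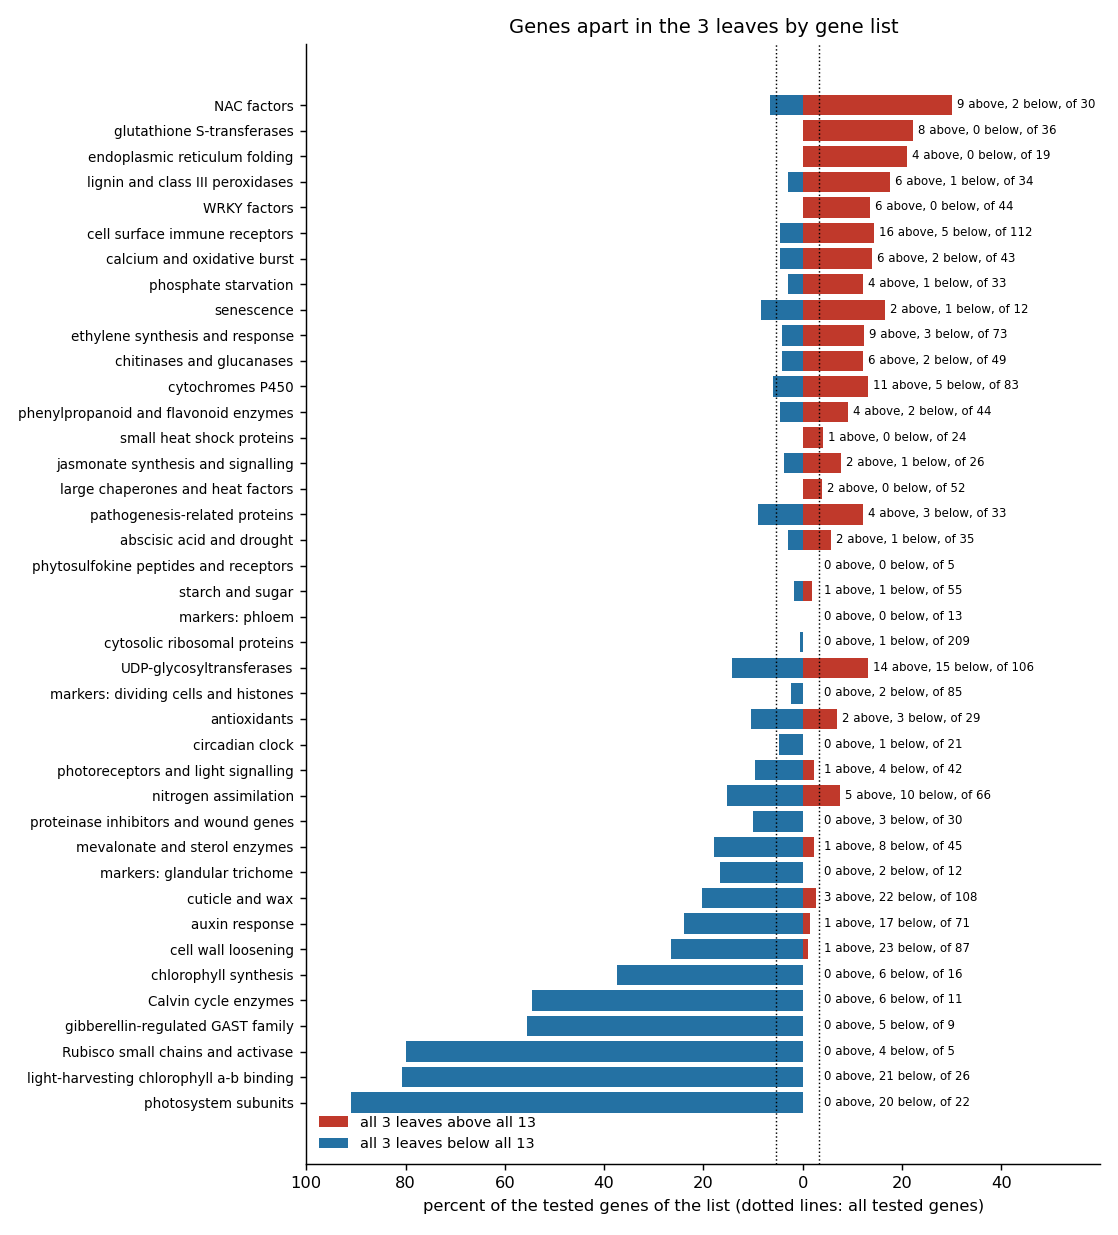
For each gene list, the percent of its genes that passed the filter and lay above (red, right) or below (blue, left) all other 13 PC libraries in all 3 leaves, by at least 1 log2. Dotted lines mark the 3.29% and 5.32% of all 15505 genes; the photosystem and light-harvesting lists extend farthest left, and the NAC factors farthest right.

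NAC factors, plant transcription factors of which several act in senescence and defence, had the largest share of higher genes among the lists, 9 of 30, with 2 lower and a median difference of 0.52. LOC101263872, a NAC domain-containing protein, had 103, 96.4 and 108 CPM in the library labelled C_PC 4, PI_PC 2 and PI_PC 3, against 14.2 to 48.2 CPM in the 13. NAC3 had 43.7 to 51.7 CPM in the 3 leaves and 2.25 to 26.1 CPM in the 13. This list was drawn up after values were seen, so its place first among the lists is no independent result.

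Of 44 WRKY factors, a family that acts in defence and senescence, 6 were higher and 0 lower, with a median difference of 0.36. LOC101268780 (chromosome 8, 56457164 to 56459542), a probable WRKY40, had 265, 289 and 441 CPM in the library labelled C_PC 4, PI_PC 2 and PI_PC 3, against 27.3 to 140.3 CPM in the 13. LOC101243805 (chromosome 8, 56470295 to 56472414), a second probable WRKY40 beside it, had 34.6, 46.3 and 90.3 CPM in these leaves, against 2.52 to 12.6 CPM in the 13. WRKY75 had 6.57 to 10.8 CPM in the 3 leaves and 0.397 to 2.11 CPM in the 13. The summed level of the family was highest in PI_PC 3 with 2894 CPM, while the library labelled C_PC 4 and PI_PC 2 had 2092 and 2179 CPM and the 13 reached at most 1698 CPM.

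Some secreted defence hydrolases were higher. Of 49 chitinases and glucanases, which break down fungal cell walls, 6 were higher and 2 lower, and the median difference of 0.05 was near that of all genes. LOC543986 (chromosome 1, 2635043 to 2636759), a beta-1,3-glucanase, had 1779, 1375 and 1709 CPM in the library labelled C_PC 4, PI_PC 2 and PI_PC 3, against 192 to 641 CPM in the 13. The summed level of the list was 5783 to 7194 CPM in the 3 leaves and 2062 to 3500.0 CPM in the 13, the highest of these in PI_PC 1. PR-P2, a pathogenesis-related protein of the chitin-binding kind, had 93.7 to 135 CPM in the 3 leaves and 26.3 to 65.5 CPM in the 13. Among all 33 pathogenesis-related genes, 4 were higher and 3 lower with a median of -0.06, so the list did not shift as a whole.

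Several companion functions of defence were high in part. Of 36 glutathione S-transferases, detoxifying enzymes, 8 were higher and 0 lower, with a median difference of 0.82. LOC101265571 of this family had 89.0 to 151 CPM in the 3 leaves, against 20.1 to 47.8 CPM in the 13. Of 43 calcium-signalling and oxidative-burst genes, 6 were higher and 2 lower. Of 112 cell surface immune receptors, a list drawn up after values were seen, 16 were higher and 5 lower, with a median of 0.27. LOC543825, alternative oxidase 1b, which bypasses part of the mitochondrial electron transport chain, had 36.9 to 63.9 CPM in the 3 leaves and 4.70 to 11.5 CPM in the 13.

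Folding genes of the endoplasmic reticulum and of the cytosol were compared next. Of 19 endoplasmic reticulum folding genes, 4 were higher and 0 lower by at least 1 log2, 9 lay above all 13 libraries by any amount, and the median difference was 0.93. LOC101265819, an endoplasmin homolog and thus a chaperone of this compartment, had 801, 594 and 1113 CPM in the library labelled C_PC 4, PI_PC 2 and PI_PC 3, against 176 to 469 CPM in the 13. LOC101246093, calreticulin, had 284 to 424 CPM in the 3 leaves and 149.9 to 244 CPM in the 13. Of 24 small heat shock genes, 23 had a positive difference with a median of 1.04, but only LOC101256536, a class I heat shock protein, lay above all 13 by at least 1 log2. The summed small heat shock level was 2600.1, 2784 and 3863 CPM in the library labelled C_PC 4, PI_PC 2 and PI_PC 3, against 1589 to 2728 CPM in the 13, and the ranges overlapped through PI_PC 1. Of 52 large chaperones and heat factors, 2 were higher and 0 lower.

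**Figure D4:**
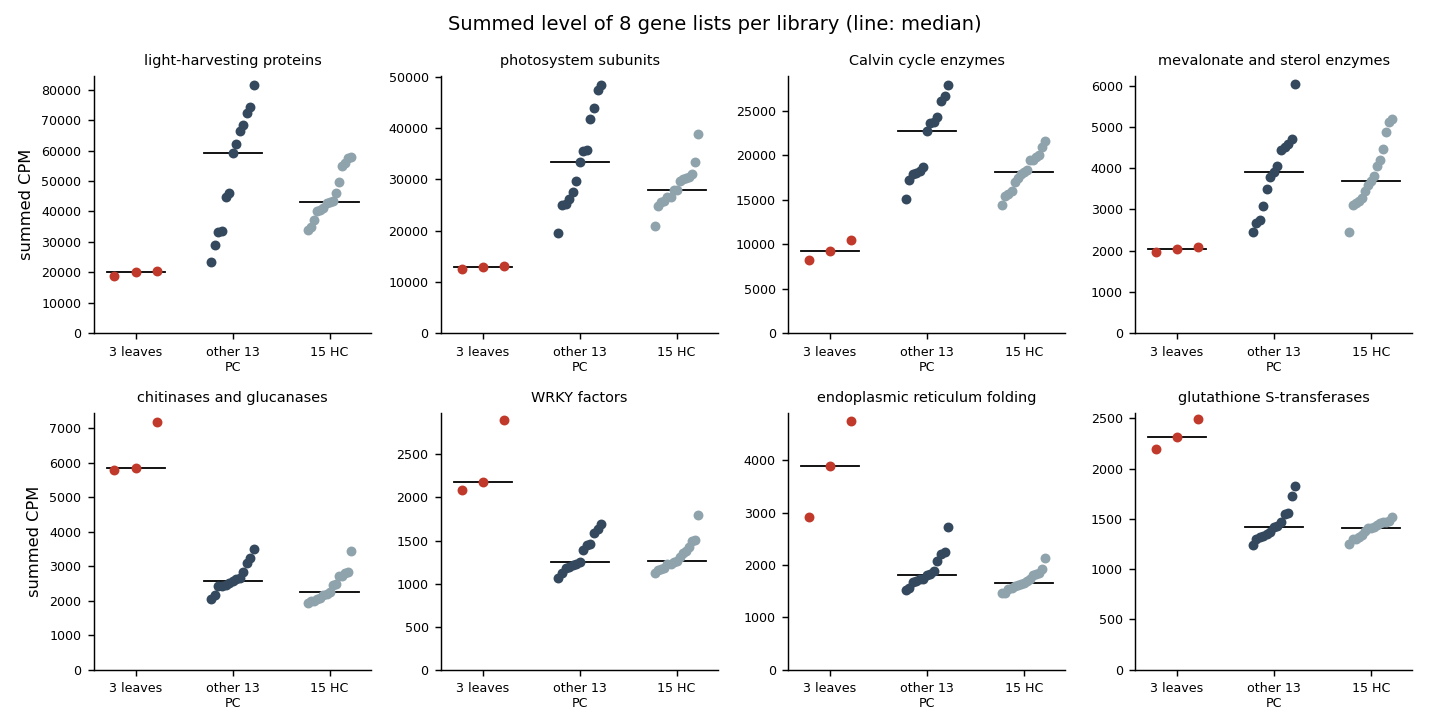
Summed CPM of 8 gene lists per library (y axes from 0), with the 3 leaves left, the other 13 PC libraries in the middle and the 15 HC libraries, scaled separately, on the right; lines are medians. The 4 upper lists lie below the other PC libraries in the 3 leaves, for light-harvesting genes at 18665 to 20342 CPM, and the 4 lower lists lie above them.

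Some ethylene genes were higher. Of 73 ethylene synthesis and response genes, 9 were higher and 3 lower, with 33 negative differences and a median of 0.04. ACO1 (chromosome 7, 59958157 to 59959931), the oxidase that releases ethylene, had 1225, 687 and 928 CPM in the library labelled C_PC 4, PI_PC 2 and PI_PC 3, against 80.2 to 365 CPM in the 13. ACS2, which makes the precursor of ethylene, had 14.1, 15.8 and 7.55 CPM in these leaves, against 0.870 to 5.38 CPM in the 13. ETR6, an ethylene receptor, had 12.3 to 14.7 CPM in the 3 leaves and 1.46 to 6.09 CPM in the 13.

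Jasmonate, wounding and drought lists were short and held few called genes. Over all genes, 3.29% were higher and 5.32% lower. Of 26 jasmonate genes, 2 were higher (7.69%) and 1 lower (3.85%) with a median of 0.01. Of 30 proteinase inhibitors and wound genes, 0 were higher and 3 lower (10%). Of 35 abscisic acid and drought genes, 2 were higher (5.71%) and 1 lower (2.86%) with a median of -0.01. dhn, a dehydrin that accumulates in dry cells, was among the higher genes, with 353 to 401 CPM in the 3 leaves and 132 to 258 CPM in the 13. Of 29 antioxidant genes, 2 were higher (6.90%) and 3 lower (10.3%). APX2, a cytosolic ascorbate peroxidase, had 168 to 234 CPM in the 3 leaves and 61.5 to 112 CPM in the 13.

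Single genes of phosphate supply were higher. LOC101244416 (chromosome 1, 84470110 to 84472543), SPX domain-containing protein 3, a member of the family that senses phosphate status, had 748, 467 and 377 CPM in the library labelled C_PC 4, PI_PC 2 and PI_PC 3. The other 13 had 18.8 to 222 CPM, a difference of 3.23, and PI_PC 1 was the highest of them. rnalx (chromosome 5, 2366442 to 2369432), the intracellular ribonuclease LX known from phosphate starvation and senescence, had 199.6, 136 and 124 CPM in these leaves, against 14.6 to 32.3 CPM in the 13. Of 33 phosphate starvation genes, a list drawn up after values were seen, 4 were higher and 1 lower with a median of 0.33. LOC101251617, a phosphate transporter, had 70.3 to 109 CPM in the 3 leaves and 21.5 to 53.9 CPM in the 13.

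Sugar genes differed singly. ht2 (chromosome 9, 67858601 to 67864619), a hexose transporter, had 368, 285 and 367 CPM in the library labelled C_PC 4, PI_PC 2 and PI_PC 3, against 35.2 to 116 CPM in the 13. Wiv-1, an acid invertase that splits sucrose, had 79.0 to 135 CPM in the 3 leaves and 17.6 to 43.4 CPM in the 13. Of 55 starch and sugar genes, 1 was higher and 1 lower. Of 66 nitrogen genes, 5 were higher and 10 lower, and their summed level was 7463 to 8348 CPM in the 3 leaves and 8827 to 11933 CPM in the 13.

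Among growth genes, more were lower than higher. Of 87 cell wall loosening genes, 23 were lower and 1 higher, with a median of -0.44. LOC101260197 (chromosome 2, 45042763 to 45044696), a pectinesterase, which modifies wall pectin, had 0.768, 0.355 and 0.980 CPM in the library labelled C_PC 4, PI_PC 2 and PI_PC 3. The other 13 had 3.51 to 237 CPM with a median of 45.8, a difference of -5.66. LOC101252082, a probable pectate lyase, had 5.25 to 6.39 CPM in the 3 leaves and 19.9 to 167 CPM in the 13. At such low levels the size of a log2 difference depends on the prior count, while the order of the libraries does not.

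Auxin and gibberellin response genes were also more often lower than higher. Of 71 auxin genes, 17 were lower and 1 higher, with a median of -0.93. PIN7, an auxin efflux carrier, had 0.295, 1.01 and 0.576 CPM in the library labelled C_PC 4, PI_PC 2 and PI_PC 3, against 2.41 to 6.11 CPM in the 13. LOC101248254 (chromosome 2, 51836319 to 51837339), a member of the gibberellin-regulated GAST family, had 4.56 to 4.96 CPM in the 3 leaves and 22.5 to 204 CPM in the 13. Of 9 genes of this family, a list drawn up after values were seen, 5 were lower and 0 higher.

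Of 45 mevalonate and sterol genes, 8 were lower and 1 higher, and 14 had positive differences. LOC101264777, a sterol desaturase, had 53.7, 83.5 and 62.0 CPM in the library labelled C_PC 4, PI_PC 2 and PI_PC 3, against 136 to 1383 CPM in the 13. LOC104649012, a methylsterol monooxygenase, differed by -2.71. HMG2, a reductase of the mevalonate pathway known for its response to wounding and elicitors, was the higher gene, with at most 39.7 CPM in the 3 leaves, against 2.97 to 9.30 CPM in the 13 and a difference of 2.22. Of 108 cuticle and wax genes, a list drawn up after values were seen, 22 were lower and 3 higher. The summed level of the list went the other way, with 5668 to 6492 CPM in the 3 leaves and 4588 to 5529 CPM in the 13. LOC101267033, a GDSL esterase, had 2.82 to 4.61 CPM in the 3 leaves and 9.23 to 73.3 CPM in the 13. The lowest single gene by difference was LOC101245586 (chromosome 1, 84551886 to 84552533), a protein of the lipid-transfer superfamily, with 0.591, 0.0592 and 0.403 CPM in the 3 leaves, against 2.47 to 107 CPM in the 13.

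The circadian clock separated the 3 leaves much less. Of 21 tested clock genes, 1 was lower and 0 higher by at least 1 log2, and the median difference was -0.19. By any amount, 1 lay above and 3 below all 13 libraries, where 1331 and 1717 of all 15505 genes did. LOC101261079 (chromosome 2, 31082630 to 31085427), REVEILLE 1, a morning factor, had 129.5, 113 and 80.6 CPM in the library labelled C_PC 4, PI_PC 2 and PI_PC 3, against 148 to 320.4 CPM in the 13. REVEILLE 7 (LOC101255972) had 132 to 175 CPM in the 3 leaves and 193 to 343 CPM in the 13, a difference of -0.88. The lowest of the 13 were PI_PC 1 with 193 CPM and the library labelled PI_PC 4 with 207 CPM, and the rest had 273 to 343 CPM. REVEILLE 1 was likewise lowest there and in FP_PC 1, with 154 CPM in PI_PC 1, 148 in PI_PC 4 as labelled and 151 in FP_PC 1. LHY (LOC101261662), a core morning gene, overlapped, with 8.13 to 10.2 CPM in the 3 leaves and 4.37 to 14.1 CPM in the 13, but its several transcripts are poorly counted.

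The evening genes were split. LOC101255788 (chromosome 4, 59098860 to 59140915), GIGANTEA, had 66.7, 49.3 and 103 CPM in the library labelled C_PC 4, PI_PC 2 and PI_PC 3. The other 13 had 5.97 to 60.6 CPM with a median of 26.9, so the difference of 1.64 came with overlapping ranges. These levels differed by label, with 5.97 to 7.38 CPM in FI_PC and 23.7 to 26.9 in the remaining C_PC libraries. FP_PC had 32.3 to 60.6 CPM, PI_PC 1 had 50.8 and the library labelled PI_PC 4 had 38.3. Of 2 genes annotated as APRR1, an evening repressor, LOC101259163 had 47.9 to 58.9 CPM in the 3 leaves and 28.5 to 45.1 CPM in the 13. The other, LOC101259425, had 70.1 to 95.2 CPM in the 3 leaves and 98.9 to 164 CPM in the 13. The 2 copies thus lay on opposite sides of the other libraries.

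**Figure D5:**
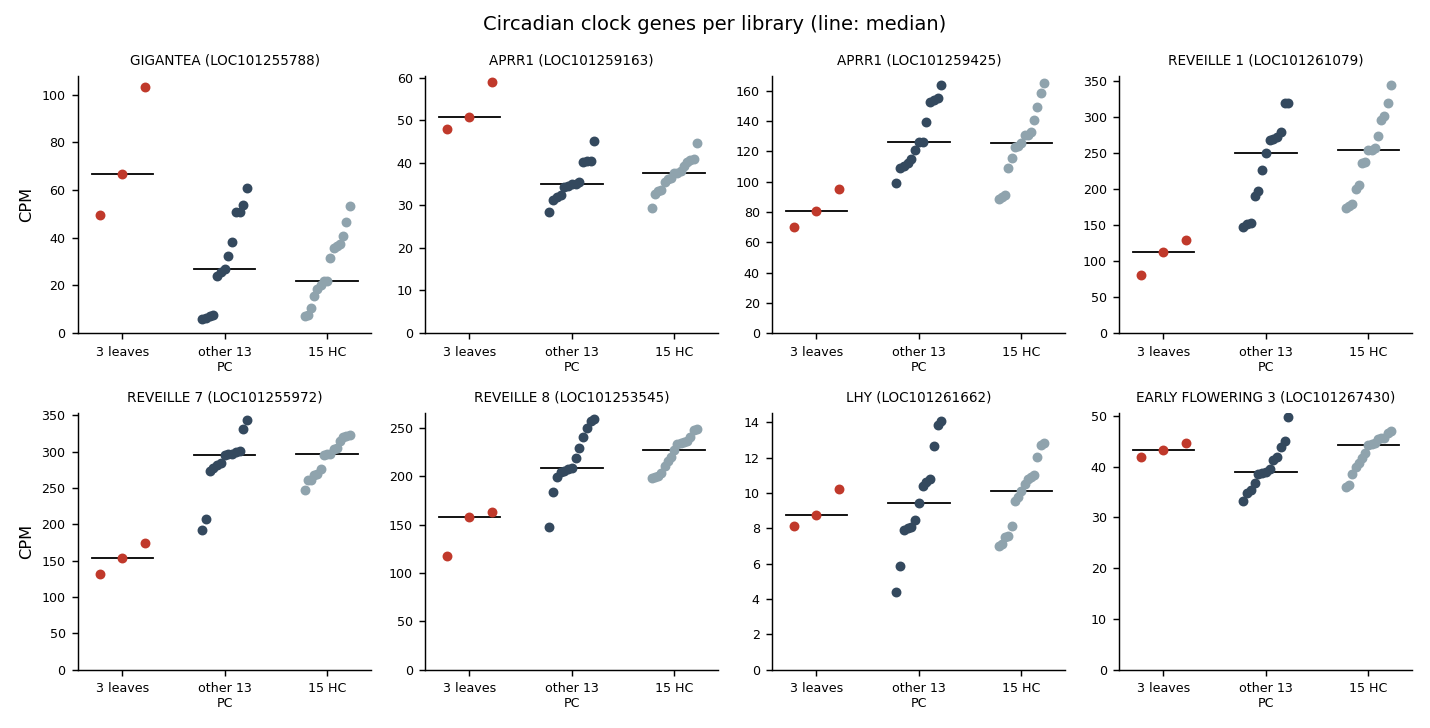
CPM of 8 clock genes per library (y axes from 0), with the 3 leaves left, the other 13 PC libraries in the middle and the 15 HC libraries, scaled separately, on the right; lines are medians. GIGANTEA, LHY, REVEILLE 8 and EARLY FLOWERING 3 overlap between the 3 leaves and the other 13, REVEILLE 1, REVEILLE 7 and LOC101259425 lie below, and LOC101259163 lies above.

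Housekeeping genes and markers of other cell types were compared the same way. Of 209 cytosolic ribosomal protein genes, 0 were higher and 1 lower, with a median of 0.18. Of 12 glandular trichome markers, 0 were higher and 2 lower, ASH1 and LOC101247356, both of acylsugar metabolism, and their summed level was 133 to 154 CPM in the 3 leaves and 199 to 523 CPM in the 13. Of 13 phloem markers, 0 were higher and 0 lower, with sums of 443 to 519.7 CPM in the 3 leaves and 394 to 726 CPM in the 13. Of 85 markers of dividing cells, 0 were higher and 2 lower, with sums of 3299.7 to 3572 CPM in the 3 leaves and 3372 to 4821 CPM in the 13. The part of these cell types in the differences was not tested.

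Large enzyme families held members on both sides. Of 106 UDP-glycosyltransferases, 14 were higher and 15 lower, of 83 cytochromes P450 11 were higher and 5 lower, and of 34 peroxidases 6 were higher and 1 lower. These lists were drawn up after values were seen. LOC101265369, a glycosyltransferase annotated for anthocyanidins, had 44.2, 65.8 and 59.5 CPM in the library labelled C_PC 4, PI_PC 2 and PI_PC 3, against 2.90 to 12.2 CPM in the 13. Of 44 phenylpropanoid and flavonoid genes, 4 were higher and 2 lower, and of 42 photoreceptor and light signalling genes 1 was higher and 4 lower. Of 5 phytosulfokine genes that passed the filter, 0 were higher and 0 lower, and PSK2 itself did not pass it.

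The 3 leaves also differed among themselves. The summed level of pathogenesis-related genes was 8109, 7230.0 and 4040.2 CPM in the library labelled C_PC 4, PI_PC 2 and PI_PC 3, against 2024 to 4021 CPM in the 13. SPX domain-containing protein 3, LOC101244416, was likewise highest in C_PC 4 as labelled, whereas the WRKY sum of 2894 CPM and the endoplasmic reticulum folding sum of 4752 CPM were highest in PI_PC 3. PI_PC 2 was lowest of the 3 in the endoplasmic reticulum folding sum, with 2910.4 CPM, close to the highest of the 13, 2729 CPM in the library labelled PI_PC 4.

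The 3 leaves enter the labelled comparison of PI_PC with C_PC, which holds 2 of them on one side and 1 on the other. With all 16 PC libraries, 0 of 15505 genes passed (0%; edgeR quasi-likelihood test, adjusted p under 0.05), while 1596 had an unadjusted p under 0.05 and the DESeq2 Wald test called 114. Without the 3 leaves, edgeR called 59 genes higher (0.373%) and 104 lower (0.657%) of 15823. Among them were 19 of the 496 tested genes higher in the 3 leaves, all 19 higher, and 26 of the 825 lower genes, all 26 lower, with median log2 fold changes of 0.30 and -0.22 over each set. The 5 PI_PC and C_PC libraries left in that comparison also helped to choose these genes, so these counts are a description and no independent check. Without the library labelled C_PC 4 alone, edgeR called 1039, and without the 3 libraries whose labels are in doubt, 3397. Both fits kept PI_PC 2 and PI_PC 3 with no leaf of the 3 in C_PC. Their calls thus hold the choice of the leaves and are no independent test. The count of called genes at equal flux thus depended on which of these libraries entered.

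The same filter in the HC experiment, was compared in libraries that the choice of genes did not use. PI_HC against C_HC had 423 higher genes (2.71%) and 522 lower genes (3.34%) of 15625 (edgeR quasi-likelihood test, adjusted p under 0.05). The 945 calls became 321 without PI_HC 4, 488 without PI_HC 3 or C_HC 2 and 480 without C_HC 1. Of the 510 genes higher in the 3 leaves, 491 were tested here, of which 21 rose and 18 fell, with a median log2 fold change of 0.03. Of the 825 lower genes, 822 were tested, of which 17 rose and 49 fell, with a median of -0.14. Leaving out 1 library moved these counts: without PI_HC 3, for example, 3 rose and 10 fell of the higher genes.

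Photosynthesis genes in PI_HC did not lie low. Of 26 light-harvesting genes, 7 rose and 0 fell in PI_HC (edgeR), with a median log2 fold change of 0.53, a sign opposite to the difference in the 3 leaves. Cab-1A had 57.8, 50.5 and 99.9 CPM in PI_HC, against 12.9, 11.3, 13.2 and 25.6 CPM in C_HC. It rose by 2.14 on the log2 scale (standard error 0.445, edgeR adjusted p = 0.0108), a call lost without PI_HC 4 and with all 31 libraries in 1 fit. The count of 7 was 0 without PI_HC 4, 3 without C_HC 1 or C_HC 2, 4 without C_HC 3 and 0 with all 31 libraries in 1 fit, while the DESeq2 Wald test and the 2 groups alone each gave 12 and the replicate block 14. Of 22 photosystem genes, 0 rose and 0 fell.

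In PI_HC, the calls of some other lists mostly had the sign seen in the 3 leaves, and those of others were few, mixed or mostly of the opposite sign (edgeR). Over all genes, 2.71% rose and 3.34% fell. Of 18 endoplasmic reticulum folding genes, 6 rose and 0 fell, a count of 1 to 3 with any 1 library left out and 0 with all 31 libraries in 1 fit. Of 115 cell surface immune receptors, 13 rose and 1 fell, and 4 to 13 rose with 1 library left out. Of 71 auxin genes, 0 rose and 6 fell, and 2 to 6 fell with 1 library left out and 0 with all 31 libraries in 1 fit. Of 87 cell wall loosening genes, 3 rose and 7 fell, and 2 to 8 fell with 1 library left out. Without PI_HC 4, 2 rose and 2 fell, and with all 31 libraries in 1 fit 1 rose and 1 fell. The WRKY factors had 1 of 45 genes rising and 3 falling, and the ethylene genes 1 of 73 rising and 3 falling. Calls this few give these lists no direction. NAC factors went both ways, with 3 of 31 rising and 4 falling. Large chaperones and heat factors had 1 of 53 rising and 6 falling. That list had 3.85% of its genes higher in the 3 leaves, near the 3.29% of all genes. Of 46 mevalonate and sterol genes, more often lower in the 3 leaves, 5 rose and 2 fell.

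Of 21 clock genes, 2 rose and 4 fell in PI_HC (edgeR). GIGANTEA, LOC101255788, had 53.4, 46.4 and 40.7 CPM in PI_HC, against 7.46, 7.18, 10.4 and 15.6 CPM in C_HC. The groups did not overlap, and it rose by 2.20 on the log2 scale (standard error 0.253, edgeR adjusted p = 0.000209). REVEILLE 1, LOC101261079, had 179.8, 174 and 177 CPM in PI_HC, against 345, 320.0, 302 and 296 CPM in C_HC, a log2 fold change of -0.83 (edgeR adjusted p = 0.00058). LOC101259425, an APRR1, had a log2 fold change of -0.75 (edgeR adjusted p = 0.000833). These 3 calls held in all 15 alternatives run. LOC101257473, annotated as PCL1, fell by 1.69 on the log2 scale (edgeR adjusted p = 0.0104), a call lost without PI_HC 4, and its difference in the 3 leaves was -0.75. These 4 calls had the sign seen in the 3 leaves, and the remaining 2 had the opposite sign. LOC101268174, annotated as EARLY FLOWERING 3, had a log2 fold change of 0.52 (edgeR adjusted p = 0.024) and a difference of -0.29 in the 3 leaves. LOC101256908, adagio protein 3, had a log2 fold change of -0.83 (edgeR adjusted p = 0.0352) and a difference of 0.28 in the 3 leaves. The call of LOC101268174 was lost in 4 of its 15 alternatives, each with 1 library left out, at an edgeR adjusted p of up to 0.125. That of LOC101256908 was lost in 7 of 15, at up to 0.166 (edgeR adjusted p).

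Of the 20 genes apart in the 3 leaves with the smallest p in PI_HC, 11 had the sign seen in the 3 leaves and 9 the opposite sign. The 11 were all genes lower in the 3 leaves. Every listed gene that was higher in the 3 leaves fell in PI_HC. PIN7 had 2.13, 1.68 and 1.02 CPM in PI_HC, against 6.86, 5.69, 5.62 and 5.50 CPM in C_HC. It fell by 1.87 on the log2 scale (standard error 0.260, edgeR adjusted p = 0.000943), a call lost only with all 31 libraries in 1 fit, at an edgeR adjusted p of 0.0582. LOC101243937, a probable receptor-like kinase, had 7.09, 9.92 and 6.92 CPM in PI_HC, against 33.2, 26.8, 12.2 and 26.1 CPM in C_HC (log2 fold change -1.62, edgeR adjusted p = 0.00422), a call also lost in that fit, at an edgeR adjusted p of 0.266. In the 3 leaves it had 3.78, 0.296 and 1.56 CPM, against 9.96 to 43.3 CPM in the other 13. XTH7, a xyloglucan endotransglucosylase of wall growth, went the opposite way, with 267, 273 and 346 CPM in PI_HC, against 143, 131, 147 and 147 CPM in C_HC (log2 fold change 1.06, edgeR adjusted p = 0.00168) and a difference of -1.18 in the 3 leaves. ETR4, an ethylene receptor, had 10.5, 12.2 and 11.5 CPM in PI_HC, against 26.1, 22.6, 22.9 and 20.9 CPM in C_HC (log2 fold change -1.02, edgeR adjusted p = 0.00119) and a difference of 1.31 in the 3 leaves. Both calls were lost only with all 31 libraries in 1 fit, at edgeR adjusted p of 0.108 and 0.155. XTH7, ETR4 and the clock genes with the opposite sign were named after their values were seen.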

How the data were processed

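Poly(A) RNA of tomato leaves was sequenced on a DNBSEQ platform, per the labels. Per the submitters' processing notes, FastQC, HISAT2, featureCounts and DESeq2 were used; per the file headers, the authors deposited counts per exon record from featureCounts 2.0.1, paired and reverse-stranded, on RefSeq annotation of build SL3.0. Exon records shared by transcripts held no counts, so genes with several transcripts are undercounted.

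Counts were summed per gene. Records without a gene name held 0.0112% to 0.379% of counts and were left out. Gene totals were 13671052 to 15210356 per library, so 3 counts correspond to 0.197 to 0.219 CPM. PC and HC libraries were filtered (filterByExpr) and TMM-scaled separately, so levels across them are not on 1 scale. Labelled groups were compared with the quasi-likelihood test of edgeR 4.0.16 (limma 3.58.1, R 4.3.3) at a Benjamini-Hochberg adjusted p under 0.05; DESeq2 1.42.0 was an alternative. The fits were tested on simulated data. The labels give 4 plants per condition.

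A gene was called higher or lower in the 3 leaves when all 3 lay outside the range of the other 13 and mean log2 CPM (prior count 2) differed by at least 1. Named genes were the 3 markers, the 12 largest differences each way at a mean log2 CPM of at least 3, up to 4 called members per list and core clock genes, of which only some are named in the text. The 3 leaves and the gene lists were chosen with earlier results of these data known. The small heat shock, folding, pathogenesis-related, chitinase, antioxidant, ribosomal, starch, nitrogen, sterol, photoreceptor and cell type lists were trimmed after values were seen.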

Additional observations from a re-analysis of the deposited data

Results flagged for a closer look

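Of 32 gaps examined within groups of 4, 9 were wide by Dixon's 95% criterion, which chance passes in about 1 of 20 groups. In C_PC, the library labelled C_PC 4 stood alone with 2997 counts of LOC101248124 (nearest 62), 260 of LOC104648840 (nearest 16) and 107 of PSK2 (nearest 5), and its 10 most counted genes took 7.03% of counts (nearest 9.89%). These restate the choice of the 3 leaves. The gene count total of C_PC 2 was 14580164 (nearest 15019005). In C_HC, the 10 most counted genes took 8.88% in C_HC 4 (nearest 9.15%), Cab-1A had 25.6 CPM in C_HC 4 (nearest 13.2), LOC101265819 had 207 CPM in C_HC 2 (nearest 223) and PIN7 had 6.86 CPM in C_HC 1 (nearest 5.69). Records without a gene name, which no comparison used, took 0.0409% of counts in FI_PC 4 and 0.379% in PI_HC 4, above the highest control library at 0.0370%.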

How the results depend on the processing

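The counts of genes higher and lower in the 3 leaves (510 and 825) were 126 and 188 with a minimum difference of 2, 1331 and 1717 with none, and 817 and 1384 against only the other 5 C_PC and PI_PC libraries. With no low-count filter they were 586 and 850, of 23124 genes. Leaving out 1 of the 3 leaves gave 578 to 689 higher and 869 to 1014 lower. Against 11 libraries, without PI_PC 4 and FP_PC 4 as labelled, an alternative chosen after seeing the data, they were 583 and 845. PI_PC against C_PC had 0 calls, against 114 with the DESeq2 Wald test, 50 with all 31 libraries in 1 fit and 163 without the 3 leaves. It had 3397 without the 3 libraries of doubtful label and 0 to 1039 with 1 library left out. The fits with 3397 and 1039 calls kept PI_PC 2 and PI_PC 3 but not the library labelled C_PC 4. PI_HC against C_HC had 945 calls, against 241 when a fold change of 1 log2 either way was also asked, 1421 with the DESeq2 Wald test, 347 with all 31 libraries in 1 fit and 321 to 993 with 1 library left out. The cause was not tested. Replicate numbers were only shared: the deviations of libraries with 1 number correlated at a mean of -0.202 in PI_PC and C_PC and -0.021 in PI_HC and C_HC, and a replicate block gave 0 and 787 calls. Of 611 recomputed descriptive values, 610 moved by less than the standard deviation pooled within the 3 leaves and within the other 13, and 0 reversed among genes called apart. For genes not called, a change of sign was not counted, and that of LHY ran from -0.115 to 0.049. The other 13 hold several filters, so this measure is wider than a replicate spread. Of 238 HC gene values, 45 lost the threshold and 0 reversed. Depth limits the lowest genes, such as LOC101245586 at 0.0592 CPM, which is under the level of 3 counts.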
